A study of Glycine max with 24 samples.

Results

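Expression of 4 nuclear loci of the photosynthetic apparatus was followed through the life of soybean cotyledons and leaves: Glyma16g28070, annotated as a light-harvesting chlorophyll-protein of complex II (subunit B1), and the rubisco small subunit loci Glyma13g07610, Glyma19g06340 and Glyma19g06370. These 4 loci of the 54175 in the tables were taken with every transcript listed for them, which gave 6 transcripts of 73320 in each tissue. Glyma19g06340 had 3 transcripts (Glyma19g06340.1, Glyma19g06340.3 and Glyma19g06340.5) and each other locus had 1. By their locus names the genes lie on chromosomes 16, 13 and 19, with a pair of rubisco loci near each other on 19. The loci were picked for what they did in the leaf libraries, where photosynthesis genes fell late and Glyma16g28070 stood out. Leaf values are therefore given below as a description without a test, and the tests are those of the cotyledon. Results of both tissues were known when the loci were chosen, so the cotyledon tests are not independent of that choice.

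All plants were of the cultivar Williams 82, and 3 replicate libraries were made for each stage. Cotyledons, a single pair per library, were taken at C-I (4 days after planting, green and unopened), C-II (15 days, open and green) and C-III (27 days, at the onset of yellowing). The C-I seedlings grew on culture medium in closed boxes and the others in a soil mix. Growth condition and age therefore cannot be told apart between C-I and C-II, nor between C-I and C-III. Leaves, a single trifoliate of the fourth node per library and each from a different plant, were taken at L-I (the V3 stage, opened and not fully expanded) and, by the labels, 2, 4, 6 and 7 weeks later at L-II to L-V, with L-IV and L-V showing visible signs of senescence. The intervals given with the study's methods are somewhat longer than those of the labels for L-II to L-V, and the order of the stages is the same in both. Apart from growth medium, no treatment or genotype separated the groups.

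Light-harvesting chlorophyll a/b proteins bind most of the chlorophyll of the leaf and pass absorbed light energy to the photosystems, and the B1 type is part of the major antenna of photosystem II. Rubisco fixes carbon dioxide in the Calvin cycle. Its large subunit is encoded in the chloroplast, while the small subunits come from a family of nuclear genes and are imported. Both proteins are abundant in green tissue and hold much of its nitrogen, and the loss of their transcripts is a familiar part of leaf senescence.

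Values are normalized counts of reads that matched a single transcript, scaled by the authors within each tissue, so that levels are compared within a tissue only. They are not divided by transcript length, so levels of different genes are not ranked. A cotyledon library held between 2163050 and 20839594 such reads, and a leaf library between 1852184 and 6887154. A limit of 3 reads corresponds to between 0.833 and 8.96 normalized counts in a cotyledon library and between 1.71 and 8.52 in a leaf library. Reads shared between near-identical copies had been discarded, so each rubisco transcript was seen only through the stretches that set it apart. Seed storage protein reads, a check on the tissue, were at 46.8 to 90.2 RPM (reads scaled to the total of the library) in the C-I libraries and at 0 to 1.45 RPM in the leaf. By C-III they were at 0.254 to 0.912 RPM, so this check no longer separated late cotyledons from leaves. In whole-tissue RNA, fewer green cells and less transcript per cell cannot be told apart.

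All 6 transcripts declined through cotyledon development, and all were lower at C-III than at C-I. The mean of Glyma16g28070.1 was 296 times lower at C-III than at C-I, that of Glyma13g07610.1 was 38.3 times lower, and those of the 4 transcripts of Glyma19g06340 and Glyma19g06370 were between 11.6 and 12.8 times lower. The timing on the log2 scale differed too. There the larger step of the light-harvesting transcript lay between C-II and C-III, while the steps of the rubisco transcripts were of similar size in both intervals. In normalized counts the larger loss of every one of the 6 came between C-I and C-II.

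Glyma16g28070.1 had 1711, 1377 and 1439 normalized counts at C-I, 302, 527 and 1039 at C-II, and 7.11, 4.998 and 3.19 at C-III. The C-II libraries differed more from each other than those of any other cotyledon stage did for this transcript, yet each lay below every C-I library and above every C-III library. At C-III the counts came from 6, 18 and 2 reads, so the last of these libraries was under the limit of 3 reads and the exact level there is poorly fixed. From C-II to C-III the log2 fold change was -6.55 (SE 0.36, limma, Benjamini-Hochberg adjusted p = 2.57e-07). From C-I to C-II it was -1.45 (SE 0.36, adjusted p = 0.00634 by limma), which passed the adjusted p limit of 0.05 and missed the fold change limit of 1.5 that a call also required. Without C-II replicate 3, the highest of that stage, the value was -1.91 and a call, and without C-I replicate 2 it was -1.51 and also a call. Without C-II replicate 1, the lowest of that stage, it was -1.02 and not a call.

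Of the 5 rubisco transcripts of the 3 loci, Glyma13g07610.1 had the most negative log2 fold change in each cotyledon comparison. It had 10357, 5825 and 9560 normalized counts at C-I, 1186, 1281 and 1060 at C-II, and 237, 224 and 212 at C-III. The libraries of a stage lay close together at C-II and C-III, and no library of one stage reached the range of another. The log2 fold change was -2.83 (SE 0.20, adjusted p = 3.31e-07, limma) from C-I to C-II and -2.38 (SE 0.20, adjusted p = 6.72e-06) from C-II to C-III.

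Glyma19g06370.1, also a rubisco small subunit, had 5974, 3668 and 5833 normalized counts at C-I, 1371, 1529 and 1515 at C-II, and 523, 402 and 402 at C-III. Its stages did not overlap either. Its log2 fold changes were -1.78 (C-I to C-II, SE 0.20, limma adjusted p = 1.52e-05) and -1.74 (C-II to C-III, SE 0.20, adjusted p = 7.22e-05).

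The transcripts of Glyma19g06340 ran almost parallel to it. Glyma19g06340.1 had 5147, 3288 and 4967 normalized counts at C-I, 1162, 1368 and 1360.1 at C-II, and 425, 333 and 329 at C-III. The stage means of Glyma19g06340.3 were 3393 ± 915, 1067 ± 69.9 and 292 ± 44.7 normalized counts from C-I to C-III, and those of Glyma19g06340.5 were 3841 ± 950.2, 977 ± 134 and 299.8 ± 39.4 (SD, n = 3 each). From C-I to C-II the log2 fold changes of Glyma19g06340.1, Glyma19g06340.3 and Glyma19g06340.5 were -1.76, -1.63 and -1.95, and from C-II to C-III they were -1.84, -1.87 and -1.70, with adjusted p between 7.75e-06 and 9.87e-05 by limma.

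**Figure D1:**
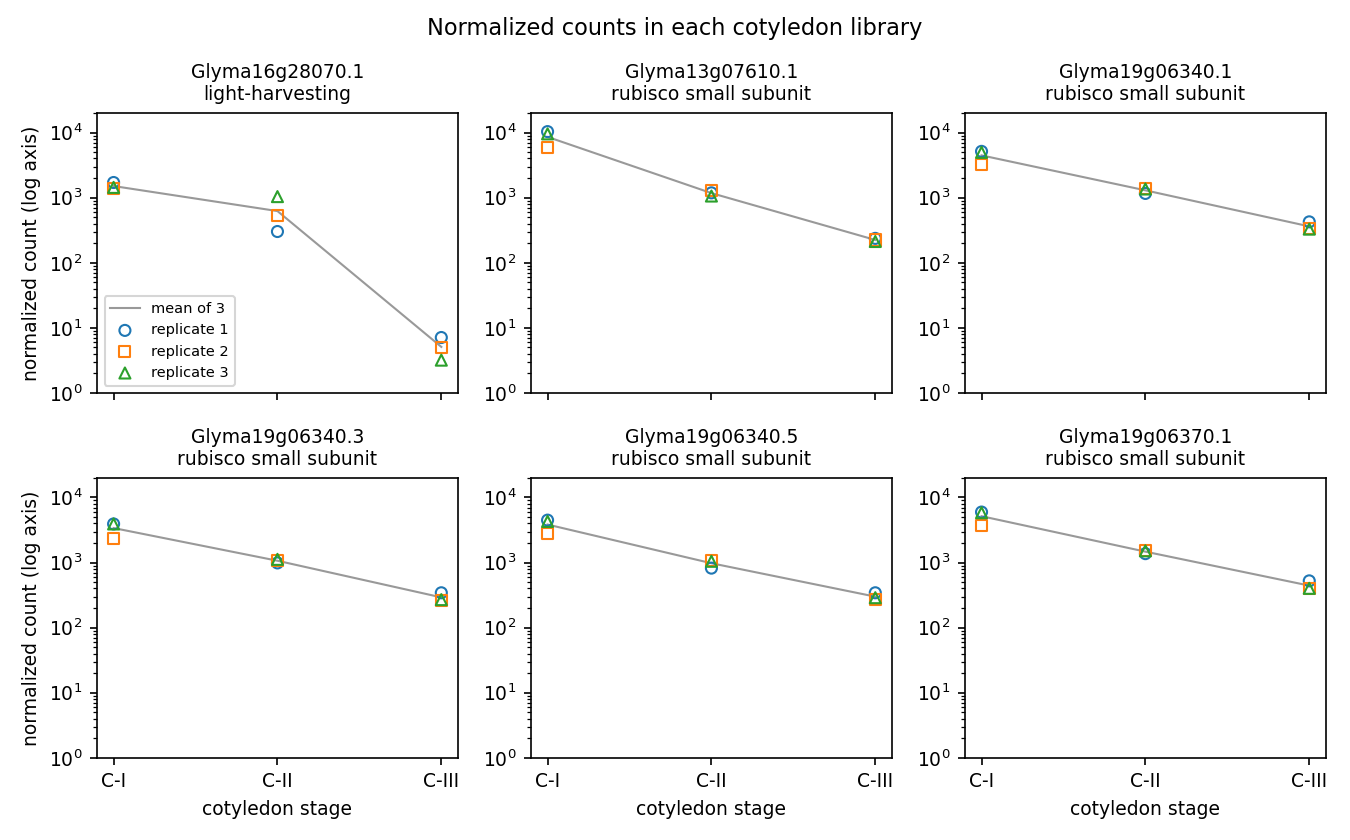
Normalized counts (log axis) of the 6 transcripts in each of the 9 cotyledon libraries, by stage, with a symbol per replicate and a grey line through the mean of 3. Glyma16g28070.1 drops to between 3.19 and 7.11 at C-III, while the rubisco small subunit transcripts step down evenly and stay above 200 normalized counts.

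By the rule for a call, 5 of the 6 transcripts fell from C-I to C-II, where 13.8% of all 53357 tested transcripts fell. From C-II to C-III all 6 fell, against 4.93% of all, and from C-I to C-III all 6 fell, against 16.8% of all. In each of the 3 comparisons the later libraries of all 6 transcripts lay below the earlier ones, which was so for 26.3%, 17.1% and 29.9% of all transcripts in that order. All 6 had at least 10 reads over the replicates in every cotyledon stage, so none entered the test through its high stage alone. The 3 comparisons share libraries, and the 6 transcripts are not independent of each other. C-I replicate 2 was the lowest C-I library for every one of the 6, and without it the 5 rubisco log2 fold changes from C-I to C-II lay between -3.08 and -1.88. Without C-I replicate 1 that of Glyma19g06340.3 was -1.506, barely past the limit of 1.5.

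Ratios between members within a library do not depend on how libraries are scaled. They were compared over the 3 cotyledon stages by exact permutation of the 9 libraries (280 groupings, not directional, smallest possible p = 0.00357), with adjustment over 7 ratios that were chosen after the values had been seen. Glyma13g07610.1 relative to Glyma19g06370.1 was at 1.73, 1.59 and 1.64 at C-I, 0.865, 0.838 and 0.699 at C-II, and 0.452, 0.556 and 0.528 at C-III (exact permutation p = 0.00357, adjusted 0.00833). The balance of these small subunit genes shifted without overlap between stages, with Glyma13g07610.1 declining further. The summed transcripts of Glyma19g06340 relative to Glyma19g06370.1 stayed between 2.12 and 2.33 in all 9 libraries (exact permutation p = 0.107, adjusted 0.125). That last test hung on C-II replicate 1, which had the lowest C-II ratio and few reads, since without it p was 0.00714.

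The light-harvesting transcript moved apart from the rubisco transcripts late. Per 100 normalized counts on the 5 rubisco small subunit transcripts together, Glyma16g28070.1 had 5.72, 7.71 and 5.04 at C-I, 5.46, 8.32 and 17.0 at C-II, and 0.380, 0.336 and 0.213 at C-III (exact permutation p = 0.0107, adjusted 0.015). C-I and C-II overlapped in this ratio, and every C-III library was far below both. Over the 9 libraries the log2 levels of Glyma16g28070.1 correlated with those of the rubisco transcripts at Pearson r of 0.907 to 0.940, and the rubisco transcripts with each other at 0.992 or more. These points share their libraries and the stages dominate them, so the correlations are descriptions.

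**Figure D2:**
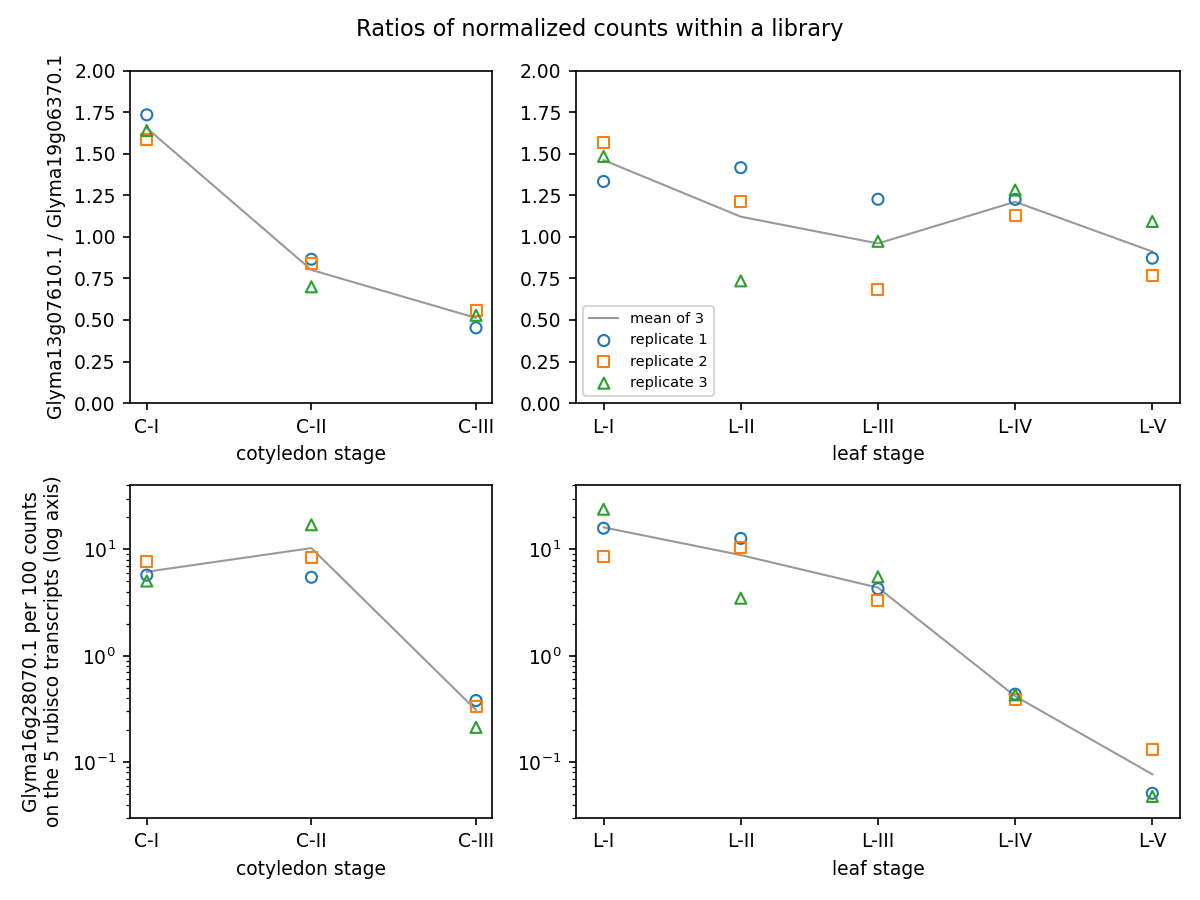
Ratios of normalized counts within each library by stage, cotyledon on the left and leaf on the right, with a symbol per replicate and a line through the mean of 3. The upper row shows Glyma13g07610.1 over Glyma19g06370.1, which falls to between 0.452 and 0.556 at C-III, and the lower row (log axis) shows Glyma16g28070.1 per 100 counts on the 5 rubisco small subunit transcripts, which falls below 0.4 at C-III and below 0.14 at L-V.

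Within Glyma19g06340 the use of the 3 transcripts was nearly constant. Glyma19g06340.1 took between 37.1% and 39.3% of the locus in all 9 cotyledon libraries (exact permutation p = 0.343, adjusted 0.343). Glyma19g06340.3 averaged 28.9% of the locus at C-I, 32.0% at C-II, then 30.6% at C-III (p = 0.00357 by exact permutation, adjusted 0.00833), and Glyma19g06340.5 averaged 32.8%, 29.2% and 31.5% at the same stages (p = 0.00714 by exact permutation, adjusted 0.0125). These shifts passed the test and were of a few percentage points, small beside the more than 11-fold decline of the locus. Shares rest on reads unique to each transcript and are not corrected for the length of the unique stretches.

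A close relative behaved differently in time. Glyma16g27995.1, the other transcript annotated as light-harvesting subunit B1 of complex II, had 5216, 3478 and 5156 normalized counts at C-I, 8.16, 30.0 and 45.2 at C-II, and 4.74, 2.78 and 0 at C-III. Its collapse therefore lay between C-I and C-II (log2 fold change -7.59, SE 0.62, limma adjusted p = 9.28e-07). On the log2 scale that interval held the smaller step of Glyma16g28070.1, although in normalized counts its larger loss lay there too. The ratio of Glyma16g28070.1 to Glyma16g27995.1 was 37.0, 17.6 and 23.0 at C-II, against 0.328, 0.396 and 0.279 at C-I. Over the 3 stages this ratio was tested with a count of 1 added to each transcript because of the library at 0 (exact permutation p = 0.00357, adjusted 0.00833). The ratio was formed after these same values had been seen, so its p is no independent evidence of the difference. C-II replicate 1 held only 3 reads of Glyma16g27995.1, at the limit of detection.

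Among the rubisco genes, Glyma19g06420.1, annotated as small chain 1A, had 74.6, 112 and 56.2 normalized counts at C-I, 27.2, 35.7 and 125 at C-II, and 4.74, 8.89 and 7.98 at C-III. It fell from C-II to C-III (log2 fold change -2.67, SE 0.49, limma adjusted p = 0.00224), and its C-II libraries overlapped those of C-I (log2 fold change -0.64, SE 0.49, adjusted p = 0.324). Rubisco activase, which frees rubisco from bound inhibitory sugars, was listed as Glyma03g12070 with 3 transcripts of at most 12 reads in any cotyledon library. None of them passed the test in a cotyledon comparison, and so few reads could not show a moderate change.

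The wider families were counted beside the members. The lists came from annotation text of the study's sheets. Nearly all of their loci came from a sheet of genes that fell late in the leaf, so their direction in the leaf is no finding. The study also reports that nearly all genes changing late in both organs did so in the same direction. The choice of the lists therefore made falls in late cotyledon likely, and their shares beside those of all transcripts are descriptions. Of the 36 other light-harvesting loci, 13 fell and 1 rose from C-I to C-II, 30 fell and 0 rose from C-II to C-III, and 32 fell and 0 rose from C-I to C-III. A locus was counted where any of its transcripts was called. By transcripts, which is how the shares over all features are counted, 17 of 47 (36.2%), 37 of 47 (78.7%) and 43 of 47 (91.5%) fell in those comparisons, against 13.8%, 4.93% and 16.8% of all. The median log2 fold changes of these transcripts were -1.05, -2.62 and -3.47 in that order, while those of all tested transcripts were -0.07, 0.01 and -0.03. Over all tested transcripts 11.6%, 3.65% and 14% rose by the same rule. More loci were called lower from C-II to C-III, the interval of the larger log2 step of Glyma16g28070.1, than from C-I to C-II. This difference between counts was not tested.

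The riser from C-I to C-II was Glyma19g45101.1, a chlorophyll a/b binding family protein, with 170 ± 95.4 normalized counts at C-II and 34.2 ± 10.05 at C-I (SD, n = 3 each; log2 fold change 2.14, SE 0.56, limma adjusted p = 0.00863). It then fell to 0.926 ± 1.60 at C-III, against 170 ± 95.4 at C-II (log2 fold change -6.59, SE 0.56, adjusted p = 6.70e-06). No C-III library held more than 10 reads of Glyma19g45101.1, so the size of this fall is poorly fixed. Glyma10g38910.1, of the same annotation, went the other way: it had 169 ± 29.6 at C-II and 2721 ± 597 at C-I (SD, n = 3 each; log2 fold change -3.99, SE 0.20, adjusted p = 1.64e-08), and from C-II to C-III all its later libraries lay above the earlier ones, a difference that did not pass the test (log2 fold change 0.45, adjusted p = 0.145, limma).

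Subunits of the photosystems themselves, 68 loci, included 14 that fell and 0 that rose in the first interval (C-I to C-II), and 55 that fell and 0 that rose in the second (C-II to C-III), with median log2 fold changes of -0.78 and -2.08. By transcripts, 23 of 92 (25.0%) fell in the first interval and 70 of 92 (76.1%) in the second, against 13.8% and 4.93% of all tested transcripts. From C-I to C-III 67 of the 68 loci fell, and by transcripts 89 of 92 (96.7%), against 16.8% of all. The photosystem II subunit X transcript Glyma09g08630.1 had 14.6 ± 6.69 normalized counts at C-III and 2035 ± 761 at C-II (SD, n = 3 each; log2 fold change -7.03, SE 0.31, limma adjusted p = 3.89e-08). Glyma13g43370.2, photosystem I subunit H2, had 1.48 ± 0.260 at C-III and 288 ± 145 at C-II (SD, n = 3 each, log2 fold change -6.71, SE 0.34, adjusted p = 1.10e-07). It had at most 6 reads in a C-III library, so the size of its fall is poorly fixed. Glyma04g07610.2, annotated as a PsbP family protein of photosystem II, dropped early, with 11.5 ± 7.54 at C-II and 232 ± 77.5 at C-I (SD, n = 3 each, log2 fold change -4.34, SE 0.51, limma adjusted p = 2.30e-05). Among the broader 177 other loci of the photosynthesis term, 63 fell and 3 rose from C-I to C-II, and 125 fell and 0 rose from C-II to C-III (37.7% and 67.4% of 236 transcripts fell).

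**Figure D3:**
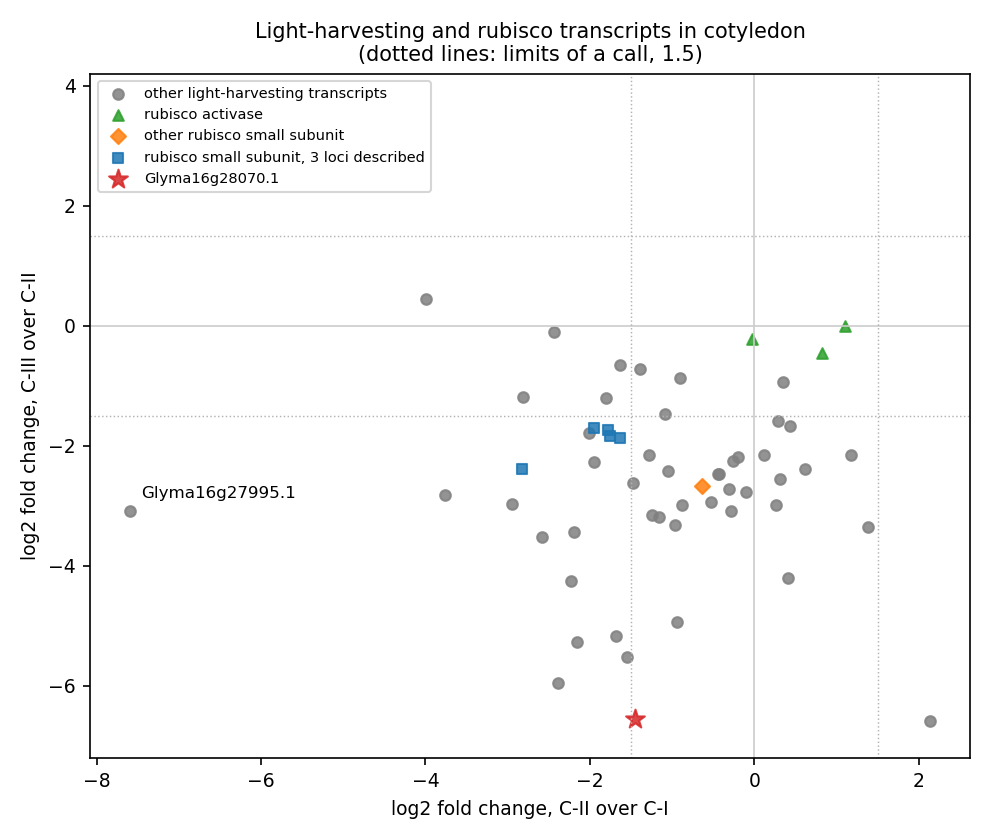
Log2 fold change from C-II to C-III (vertical axis, C-III over C-II) against that from C-I to C-II (horizontal axis, C-II over C-I) for each transcript of the light-harvesting and rubisco lists, with dotted lines at the limit of a call. Glyma16g28070.1 (-1.45, -6.55) lies near the bottom and Glyma16g27995.1 (-7.59, -3.08) at the far left. The transcripts of Glyma19g06340 and Glyma19g06370 form a tight group with moderate falls in both intervals. Glyma13g07610.1 (-2.83, -2.38) lies apart from them with larger falls, and rubisco activase lies near no change after C-II.

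In the leaf Glyma16g28070.1 was nearly lost while the rubisco transcripts declined less. Its log2 fold change from L-I to L-V was -9.65, while that of Glyma13g07610.1 was -2.92. The other 47 listed light-harvesting transcripts had a median of -2.90 over that span, so the near loss does not describe their list as a whole. The mean of Glyma16g28070.1 was 932 times lower at L-V than at L-I, that of Glyma13g07610.1 was 6.21 times lower, and those of the other 4 rubisco transcripts were between 3.87 and 4.23 times lower. Single L-V libraries weighed on these ratios, which were 1604 for Glyma16g28070.1 without L-V replicate 2 and 9.78 for Glyma13g07610.1 without L-V replicate 3. All leaf values are descriptions, since these libraries were used to choose the loci.

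Glyma16g28070.1 had 3987, 1810 and 5152 normalized counts at L-I, 2688, 1628 and 105 at L-II, 621, 182 and 357 at L-III, 24.8, 19.2 and 36.4 at L-IV, and 0.891, 7.20 and 3.66 at L-V. Neighbouring stages overlapped up to L-III, and from L-III onward each stage lay wholly below the one before. The largest step was from L-III to L-IV, a log2 fold change of -3.68 (SE 0.89), and the step from L-IV to L-V was -2.69 (SE 0.89). The L-V counts came from 1, 7 and 5 reads, so L-V replicate 1 was under the limit of 3 reads and the size of the last step depends on what is added before taking logs: with 5 added in place of 1 it was -1.86.

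Glyma13g07610.1 had 7331, 6739 and 6758 normalized counts at L-I, 6445, 4201 and 555 at L-II, 3981, 965 and 1525 at L-III, 1512, 1250 and 2396 at L-IV, and 387, 1033 and 1936 at L-V. L-I stood above all later libraries, and from L-II to L-V every stage overlapped the next. The log2 fold change was -1.49 (SE 0.76) from L-I to L-II and -2.92 (SE 0.76) from L-I to L-V.

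Glyma19g06370.1 had 5501, 4300.2 and 4556 normalized counts at L-I, 4552, 3465 and 755 at L-II, 3248, 1417 and 1568 at L-III, 1234, 1111 and 1869.9 at L-IV, and 444, 1341 and 1772 at L-V. At least one library of each stage reached into the range of the next, and all of L-V lay below all of L-I. The 3 transcripts of Glyma19g06340 kept to the same pattern, with stage means of 4206 ± 479, 2549 ± 1691, 1761 ± 914, 1250.4 ± 322 and 995 ± 598 normalized counts for Glyma19g06340.1 from L-I to L-V (SD, n = 3 each). Their log2 fold changes from L-I to L-V were -2.33 for Glyma19g06340.1, -2.29 for Glyma19g06340.3 and -2.20 for Glyma19g06340.5.

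**Figure D4:**
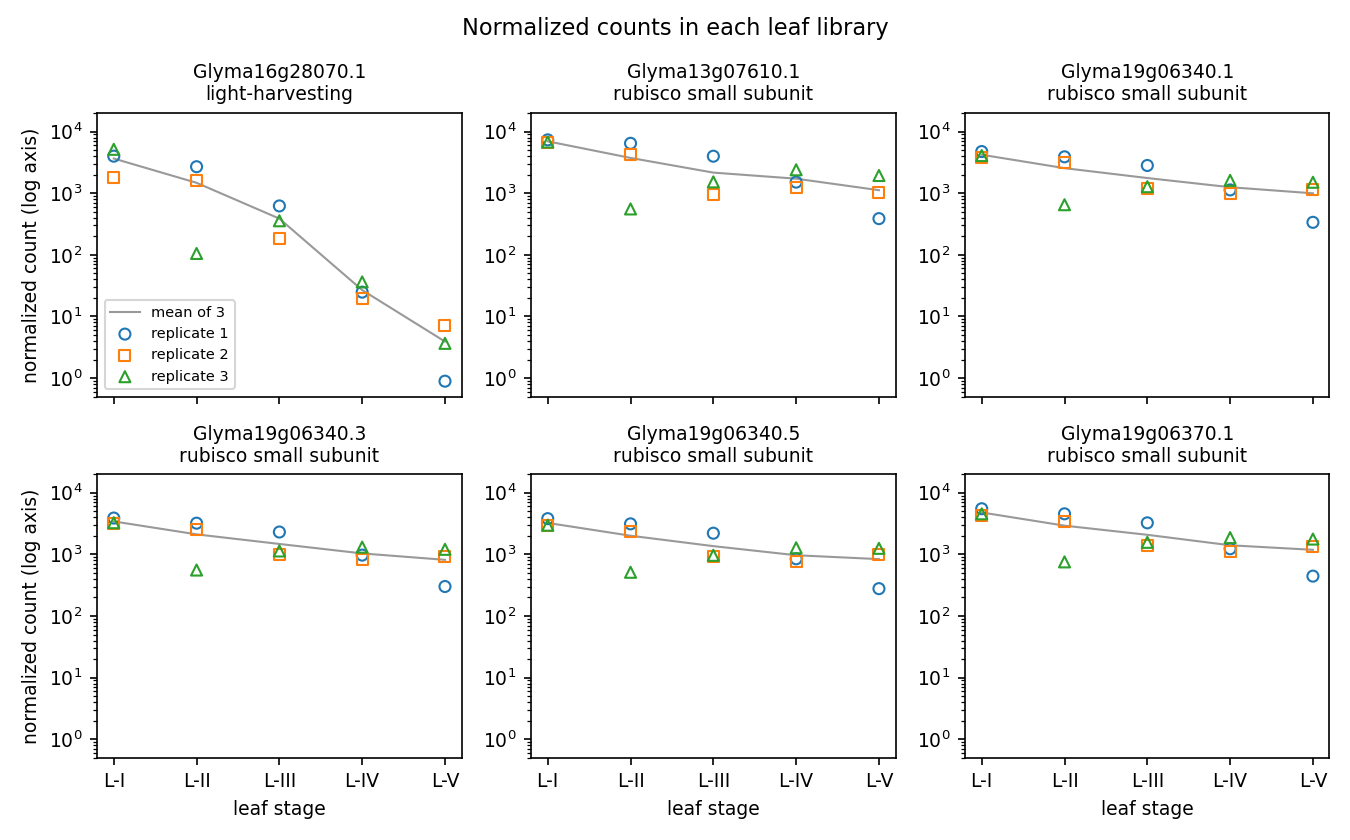
Normalized counts (log axis) of the 6 transcripts in each of the 15 leaf libraries, by stage, with a symbol per replicate and a grey line through the mean of 3. Glyma16g28070.1 declines to between 0.891 and 7.20 at L-V, the rubisco small subunit transcripts stay above 270 normalized counts, and L-II replicate 3 lies below its stage in every panel.

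Counted as in the cotyledon, all 6 transcripts had every L-V library below every L-I library, which was so for 25.8% of the 50940 leaf transcripts tested. From L-I to L-II this held for 1 of 6, Glyma13g07610.1 (19% of all), from L-II to L-III for 0 of 6 (9.6% of all), from L-III to L-IV for 1 of 6 (9.69% of all) and from L-IV to L-V for 1 of 6 (10% of all), the last pair both being Glyma16g28070.1. These counts are part of what the loci were chosen on and nothing is read from them.

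Single libraries carried much of the leaf spread. Each came from a different plant, so plant and library preparation cannot be told apart. L-II replicate 3 was low for all 6 transcripts, with a median log2 difference of -2.41 from the other L-II libraries. The photosynthesis loci other than the members were low there too, with a median of -1.84, while the median over all transcripts differed by 0.04. Without this library the log2 fold change of Glyma13g07610.1 from L-I to L-II was -0.41 rather than -1.49, and that of Glyma16g28070.1 was -0.67 rather than -2.11. L-V replicate 1 was low for all 6 in the same manner, with a median log2 difference from its stage of -1.84 for the members and -0.90 for the other photosynthesis loci. Among the high libraries were L-II replicate 1, with a median log2 difference from the others of its stage of 1.495 for the members and 1.12 for the other photosynthesis loci, L-V replicate 3 (1.23 and 0.54) and L-III replicate 1 (1.21 and 0.94). Over all transcripts L-V replicate 3 had a Pearson r of 0.945 with the mean of L-IV and 0.918 with that of the rest of L-V. For L-III replicate 2 the values were 0.930 with L-IV and 0.921 with the rest of L-III. The mean of a whole stage holds more libraries than that of the rest of a stage. These values are therefore not measured alike, and no likeness to L-IV is read from them.

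The direction of single rubisco steps in the leaf hung on single libraries. Without L-II replicate 1, the 5 rubisco values from L-II to L-III turned to between 0.17 and 0.26, and without L-V replicate 1 those of the 4 transcripts of Glyma19g06340 and Glyma19g06370 from L-IV to L-V turned to between 0.07 and 0.23. Without L-III replicate 1, Glyma13g07610.1 was at 0.45 and Glyma19g06340.5 at 0.01 from L-III to L-IV. From L-I to L-V every one of the 6 was negative whichever library was left out, the smallest being -1.53 for Glyma19g06340.5 without L-V replicate 1.

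The ratios within leaf libraries followed those of the cotyledon in part. Per 100 counts on the 5 rubisco transcripts, Glyma16g28070.1 had 15.8, 8.65 and 23.8 at L-I, 12.7, 10.4 and 3.47 at L-II, 4.27, 3.32 and 5.52 at L-III, 0.436, 0.387 and 0.429 at L-IV, and 0.0510, 0.132 and 0.0477 at L-V. The libraries of L-III and L-IV lay close together in this ratio, and those of L-I, L-II and L-V were spread more widely. Glyma13g07610.1 relative to Glyma19g06370.1 lay between 0.770 and 1.09 at L-V, against 1.33 to 1.57 at L-I, and it was lowest within its stage at 0.735 in L-II replicate 3 and at 0.681 in L-III replicate 2. The summed transcripts of Glyma19g06340 relative to Glyma19g06370.1 stayed between 2.06 and 2.39 over the 15 libraries, close to the range in cotyledon. Glyma16g28070.1 relative to Glyma16g27995.1 lay between 0.167 and 1.32 in the leaf, where no stage showed the high ratio of C-II.

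Glyma16g27995.1 itself had 8508, 3389 and 7848 normalized counts at L-I, 1431, 227 and 407 at L-III, 31.2, 24.4 and 27.5 at L-IV, and 5.35, 16.4 and 4.39 at L-V. Glyma16g27995.1 and Glyma16g28070.1 therefore declined side by side in the leaf, with log2 fold changes from L-III to L-IV of -4.16 and -3.68. The transcripts annotated as chlorophyll A/B binding protein 1 lay between -2.78 (Glyma02g08910.1) and -0.69 (Glyma05g25810.1) in that interval. Over the 15 leaf libraries the log2 levels of Glyma16g28070.1 correlated with the rubisco transcripts at Pearson r of 0.810 to 0.857, and the rubisco transcripts with each other at 0.982 to 0.999.

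The 6 transcripts took up 0.0356% to 0.214% of the reads of the L-V libraries, against 0.487% to 0.556% of those of L-I. In cotyledon they took up 0.0240% to 0.0344% at C-III, against 0.261% to 0.454% at C-I. Within each tissue the first and last stages did not overlap.

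Profiles over all 24 libraries, centred within each tissue, were compared with those of 20293 transcripts of other loci that had enough reads in both tissues. The transcripts most like Glyma16g28070.1 were Glyma02g47560.2 (Pearson r = 0.983), Glyma19g44610.1 (0.980) and Glyma10g11550.2 (0.977). Closest to Glyma13g07610.1 were Glyma02g16620.1, annotated as a chloroplast stem-loop binding protein (0.984), Glyma07g32190.1 (0.976) and Glyma17g05150.1. Glyma19g06370.1 and all 3 transcripts of Glyma19g06340 had Glyma07g06660.2 as their nearest, at 0.980 to 0.985, followed by Glyma07g32190.1 or by Glyma13g28180.6, a transcript of glutamine synthetase 2, at 0.974 to 0.979. By the same measure Glyma13g07610.1 was closer to the other rubisco transcripts (0.987 to 0.988) than to any of these, and Glyma16g28070.1 correlated with the rubisco transcripts at only 0.830 to 0.879.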

How the data were processed

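RNA of 9 cotyledon and 15 leaf libraries was sequenced. The authors mapped the reads with Bowtie to the transcript models of Gmax_189, allowing 1 mismatch per read, dropped reads that matched more than 1 transcript, and deposited a table per tissue of DESeq variance-stabilized log2 values. Undoing this transformation gave normalized counts, which in each library were whole multiples of a single step (100% within 0.05) and so yielded the reads per transcript. Leaf libraries ran in a single lane and cotyledon libraries 3 to a lane. Leaf labels 1, 3, 5, 7 and 8 correspond to the stages L-I to L-V.

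A transcript was tested if its replicates at any stage summed to 10 reads or more. Tests were run on log2(normalized count + 1) with limma 3.58.1 (R 4.3.3) and an intensity trend, in one fit per tissue, with Benjamini-Hochberg adjustment over all transcripts of a comparison. A call required an adjusted p under 0.05 together with a log2 fold change beyond 1.5 in either direction. Fold changes of low transcripts are understated by the added count. On simulated cotyledon data with 52073 transcripts tested, 86% of those lowered by 2 and 98% of those lowered by 3 on the log2 scale were called, with 0 false calls. The simulation gave every transcript the same setting of spread between replicates and planted changes only in transcripts above a minimum level. Its shares therefore do not measure the error rate in the real libraries. Ratios were tested by exact permutation. Leaf replicates came from different plants, and cotyledon replicates are described as biological. Alternative settings covered the pseudocount (0.1 or 5), the filter (none, or a mean of 10), the scaling (TMM), the measure (deposited values, voom, locus sums), a replicate block and the omission of each library.

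The members and lists were chosen with earlier results of these data known. Named besides the members are up to 2 of the largest rises and 2 of the largest falls per list and cotyledon comparison, with libraries that do not overlap, the 3 most similar transcripts per member (mean of at least 20 in each tissue) and close paralogs. Those with at most 3 reads per library at their low stage were not printed. No sequences were used here.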

Additional observations from a re-analysis of the deposited data

How the results depend on the processing

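The cotyledon calls of the members kept their direction and their side of the limits under every alternative to the fit that kept all libraries (162 of 162 values). With each library left out, 160 of 162 did so. The others were Glyma16g28070.1 from C-I to C-II, whose value ranged from -1.91 to -1.02 and became a call in 2 settings, at -1.51 without C-I replicate 2 and -1.91 without C-II replicate 3. In leaf, 321 of 324 values under other settings were scored as the same as in the main fit. The exceptions were those of Glyma16g28070.1 with 5 added before logs. They were -1.86 from L-IV to L-V (main fit -2.69), -5.35 from L-III to L-V (main fit -6.37) and -8.61 from L-I to L-V (main fit -9.65). Each was less negative because the added count is large beside the few reads at L-V. The median log2 fold change of the 6 transcripts from L-I to L-V was -2.31, and -2.72 to -1.68 with a library left out. Without C-II replicate 1, the ratio of Glyma19g06340 to Glyma19g06370.1 passed the exact permutation test at p = 0.00714.

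Replicate numbers are shared across stages without marking a common plant. Deviations from the stage means correlated between same-numbered libraries at -0.08 to 0.07 in cotyledon and -0.20 to 0.20 in leaf, so they were not treated as pairs. Between differently numbered libraries they correlated at -0.06 to 0.06 in cotyledon and -0.28 to 0.38 in leaf. The highest was that of L-II replicate 3 with L-III replicate 2. With the replicate block, 5 members were called from C-I to C-II and 6 in each of the other comparisons, as without it. In 6 of 9 cotyledon libraries and 6 of 15 leaf libraries the mean correlation was higher with the same number than with others.

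Depth limits Glyma16g28070.1 at C-III and L-V, where it had 26 and 13 reads over 3 libraries.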
